A study of Mus musculus with 6 samples.

Results

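Stx11, a syntaxin of membrane fusion, was followed with 9 further genes of the same machinery in irradiated murine pre-B cells. The members were chosen by gene symbol and are the syntaxin genes Stx11, Stx3, Stx4a, Stx5a, Stx7 and Stx12, the syntaxin binding proteins Stxbp2 and Stxbp3, Snap23 and Vamp8. They make up 10 of 18193 genes and 21 of 45037 probe sets with the controls left out, where a probe set is a group of short probes that gives 1 signal. Stx11 leads the list because its signal rose after irradiation in these same arrays, so that its own change is given as a description with no test. The other 9 joined it as family members and fusion partners.

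RNA was hybridised to Affymetrix Mouse 430 2.0 arrays from 3 wild type pre-B cell lines, derived independently and transformed with v-abl, and the replicate number of an array was taken as the number of its line. Each carried Eμ-Bcl2, a transgene for the survival protein Bcl2, and was held in 3 μM STI571 (imatinib, an Abl kinase inhibitor) for 48 hours, which stops them in G1. Of each line, 1 culture was mock irradiated (0 Gy) and 1 received 1 Gy of γ-rays at 0.72 Gy per minute, with collection 2 hours later, which gives 3 arrays per dose. These are transformed, arrested lines, and no age of the mice was used here. The comparison asks which genes respond to radiation, which makes DNA breaks and other lesions that these arrays cannot tell apart. Median signals were 51.6 to 59.4, and 41.7% to 43.8% of probe sets reached a signal of 100 (arbitrary units) on an array. Since the 3 replicates of a dose are different lines, a p-value of the fit without the line is measured against the spread between lines. With the line in the model, as a block or in the test of line differences, it is measured against the spread left after dose and line.

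Membrane fusion inside cells is driven by SNARE proteins, helical proteins that sit on a vesicle and on its target membrane and zip together into a bundle. Syntaxins and SNAP proteins contribute the target side and VAMP proteins the vesicle side, while SM proteins such as those of the Munc18 family hold a syntaxin ready and template the bundle. Syntaxin 11 is unusual in that it lacks a transmembrane anchor and is held on membranes through lipids on its cysteines. It is best known from cytotoxic lymphocytes, where it works with Munc18-2, the product of Stxbp2, in the release of lytic granules. Loss of either protein in humans causes familial hemophagocytic lymphohistiocytosis.

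Stx11 went from a low signal on all mock arrays to a clear signal on all irradiated arrays. Its brightest probe set read 84.7, 67.1 and 81.5 in lines 1, 2 and 3 at 0 Gy, against 957, 1092 and 836 once irradiated. The lowest irradiated array thus lay far above the highest mock array, and the lines differed little from each other at either dose. The means were 77.8 ± 9.34 (SD, n = 3) and 962 ± 128, a fold change of 12.4 on the log2 scale of geometric means (log2 fold change 3.63), and the folds within lines were 11.3, 16.3 and 10.3. The second Stx11 probe set gave 68.3, 54.3 and 71.0 at 0 Gy and 422, 620 and 380.0 after 1 Gy, a smaller fold of 7.23. Both probe sets were highest in line 2 after irradiation and lowest in line 3. By log2 fold change, Stx11 ranked 11 among 9678 genes, each taken by its brightest tested probe set. All 6 mock signals of the 2 probe sets lay under 100, where a signal is close to background, so that the size of the fold depends on how low signals are treated. With signals under 100 set to 100, the fold was 9.56 for the first probe set and 4.63 for the second.

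**Figure D1:**
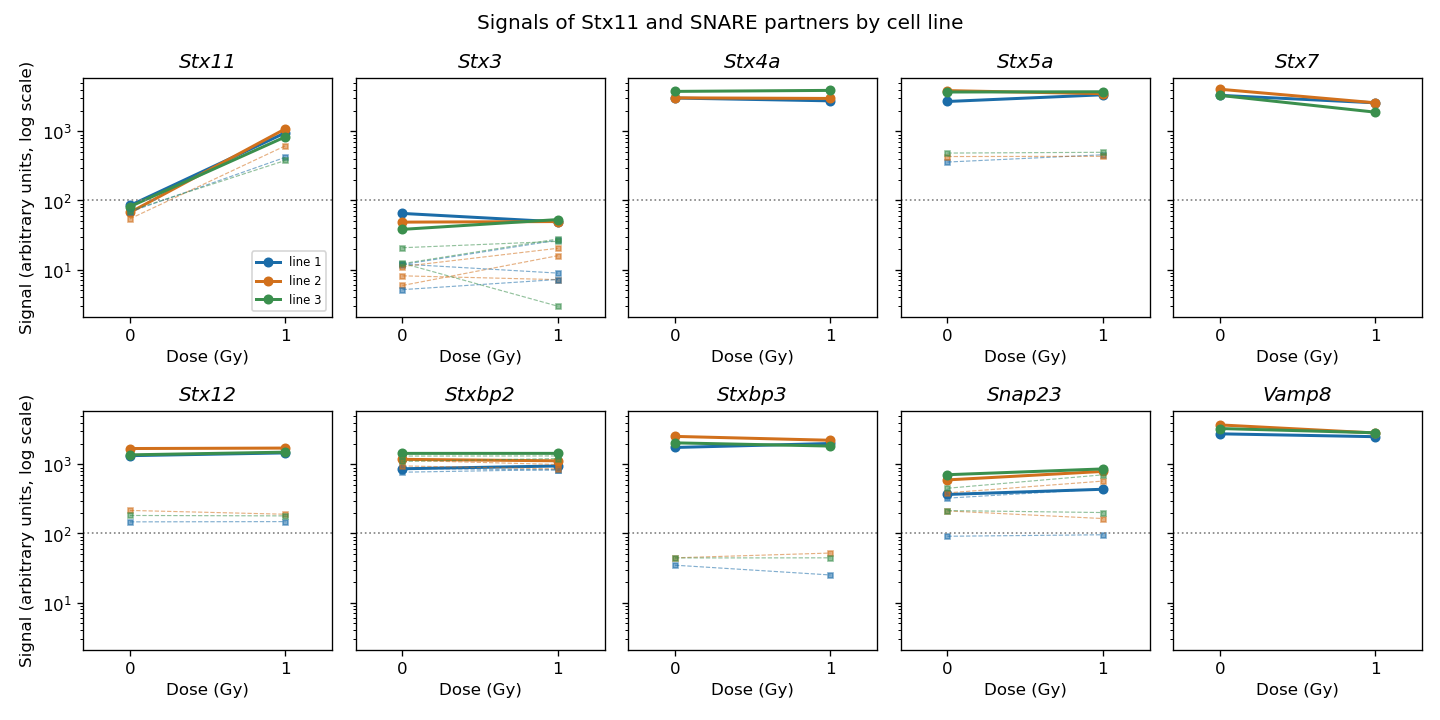
Each panel is 1 of the 10 member genes, with dose on the horizontal axis and signal in arbitrary units on a logarithmic vertical axis (the dotted line marks 100). The arrays of a cell line are joined. Thick lines are the brightest probe set of a gene and thin dashed lines its other probe sets; levels of different probe sets are not comparable with each other. Both Stx11 probe sets climb from under 100 to between 380.0 and 1092, and Stx3 stays under 100 throughout. Among the rest, Stx7 and Vamp8 are lower in all 3 lines. Higher in all 3 are the brightest Snap23 and Stx12 probe sets, 1 dashed Snap23 probe set and 1 dashed Stx5a probe set.

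The arrays were checked for cells in which Stx11 is usually abundant. All 7 measured B lineage markers were at 1514 or above on every array (Cd79a, Cd79b, Vpreb1, Igll1, Ebf1, Pax5 and Blnk). Of 8 myeloid markers 1 reached 100, Itgam, an integrin chain of myeloid cells, with 130 to 163 at 0 Gy and 235 to 342 after 1 Gy. The summed myeloid signal was 248 to 339 at 0 Gy and 391 to 474 after 1 Gy. The rest of the myeloid list stayed under 100. Csf1r read 51.2 to 86.3, Adgre1 10.5 to 45.0 and Mpo 1.55 to 26.0. Lyz2, Cd14, S100a8 and S100a9 were at 25.0 or below on all 6 arrays. Of 6 measured NK cell markers, 1 reached 100, the granule protein gene Prf1, with 111 to 180 at 0 Gy and 107 to 141 after 1 Gy, and summed signals were 153 to 258 and 167 to 223. None of the 7 T cell markers reached 100 (summed signal 59.8 to 162 at 0 Gy and 88.1 to 148 after 1 Gy). Of 4 megakaryocyte and platelet markers, 1 reached 100, Itga2b, with 154 to 195 at 0 Gy and 114 to 196 after 1 Gy. Their summed signals were 173 to 253 at 0 Gy and 164 to 247 after 1 Gy. Beta-actin, whose 3′ to 5′ signal ratio reflects how intact the RNA is, had a ratio of 1.45 ± 0.05 at 0 Gy and 1.32 ± 0.06 after 1 Gy (SD, n = 3). The same ratio of Gapdh overlapped between doses, at 0.7676 to 0.9004 at 0 Gy and 0.7845 to 0.7996 after 1 Gy. The part of Itgam and of these ratios in the Stx11 values was not tested.

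Sequence before the transcription start was taken for the members from RefSeq (build GRCm38.p6), in windows of 250 bases before to 50 bases after a start. All 10 members had a window. The Stx11 window holds 27 CpG dinucleotides, a number reached by 15.5% of the 32851 windows of the genome, whose median is 7. Among the other members the number runs from 5 (Vamp8) to 32 (Stx12), so that a high number is not particular to Stx11. The Stx11 window also holds GC boxes (GGGCGG on either strand), which 35.7% of all windows and 6 of the 10 members have. To show what these boxes look like beside the start of Stx11 and of a pair of other members, 2 of the 3 boxes of Stx11 are given with 2 overlapping boxes of Stx4a and 1 box of Stxbp3, as 30 bases 5′ to 3′ in the direction of the gene with the boxes in capitals.
Stx11, chr10:12964304-12964333, minus strand: agggcgtccccgGGGCGGggccctggtccc
Stx11, chr10:12964261-12964290, minus strand: tcagcgcggcagGGGCGGagccagcagcac
Stx4a, chr7:127841774-127841803, plus strand: tcatcccccgagGGGCGGGGCGGcagctgc
Stxbp3, chr3:108840562-108840591, minus strand: ggcccgcggaggGGGCGGagcctccccacc
The first base of the box lies 62 and 19 bases before the start of Stx11, 22 and 17 bases before that of Stx4a and 77 bases before that of Stxbp3. The AP-1 letters TGANTCA (N is any base, both strands) are in the windows of 0 members and of 7.81% of all windows, and the E-box CACGTG is in that of Stxbp2 and in 7.15% of all. A match describes the letters of the window, and binding was not measured.

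None of the 8 tested partners passed the test of dose without the cell line in the model. Over all genes by brightest probe set, 5.35% passed (518 of 9678, limma, adjusted p under 0.05), against 0 of the 8 tested partners. Of all genes, 2.12% were higher and 3.23% lower after 1 Gy. At an unadjusted p under 0.05 (limma), 1 of the 8 partners was lower and 0 were higher. Of all 9678 genes, 1617 were lower and 811 higher at that threshold. When each line was compared with itself, by the line as a block in limma, 21.4% of genes passed, 6.62% higher and 14.7% lower, as did 1 of the 8 partners, Stx7, which was lower. Stxbp2, the SM protein of Stx11, read 866, 1185 and 1446 in lines 1, 2 and 3 at 0 Gy and 950.1, 1128 and 1447 after 1 Gy. The doses overlapped fully, and the order of the lines was the same at both. Its log2 fold change was 0.02 (95% confidence interval -0.61 to 0.65, adjusted p = 0.974, limma), and its 2 other probe sets gave -0.09 and 0.04. Within lines, under the block, the interval of the fold ran from 0.820 to 1.26.

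Snap23, the SNAP protein found outside neurons and the usual partner of Stx11 on the target membrane, had 3 tested probe sets that disagreed. The brightest read 368, 597 and 709.9 at 0 Gy and 437, 792 and 861 after 1 Gy. Signals were higher after 1 Gy in all 3 lines, by 0.25, 0.41 and 0.28 on the log2 scale. The spread between lines was wider than the difference, and the doses overlapped (log2 fold change 0.31, interval -0.58 to 1.20, adjusted p = 0.669, limma). Under the block the interval was 0.01 to 0.61, and the probe set did not pass (adjusted p = 0.127, limma). The second probe set read 325, 387 and 452 at 0 Gy and 442, 574 and 707 after 1 Gy. Its log2 fold change of 0.55 had an adjusted p of 0.223 without the block and 0.0412 with it (limma), so that it passed only under the block. Over all probe sets, 4.48% passed without the block and 18.3% with it. The third probe set, with signals of 91.2 to 215 and 95.8 to 201, gave -0.13 (adjusted p = 0.902, and 0.536 with the block, limma).

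Vamp8, a vesicle SNARE of late endosomes and of secretory granules, read 2776, 3737 and 3313 at 0 Gy and 2523, 2853 and 2876 after 1 Gy. It was lower in all 3 lines, by a log2 value of -0.14 to -0.39, and 65.1% of genes moved the same way in all 3 lines. The difference was within the spread of the lines (log2 fold change -0.24, interval -0.64 to 0.16, adjusted p = 0.438, and 0.217 with the block, limma).

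Among the tested syntaxins other than Stx11, Stx7 had the largest difference. Stx7 acts in the fusion of late endosomes with each other and with lysosomes. Its only probe set read 3334, 4084 and 3328 at 0 Gy and 2597, 2598 and 1901 after 1 Gy. All irradiated arrays lay below all mock arrays, as was true in one direction or the other of 32.9% of genes and of 1 of the 8 tested partners. The log2 fold change was -0.61 (standard error 0.19, interval -1.07 to -0.15), and its adjusted p was 0.129 without the block and 0.0497 with it (limma). Its folds of 0 Gy over 1 Gy in lines 1, 2 and 3 were 1.28, 1.57 and 1.75.

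Stx4a, a syntaxin of the plasma membrane, and Stxbp3, the Munc18 protein that binds it, differed little between doses. Stx4a read 3048, 3067 and 3803 at 0 Gy and 2774, 3004 and 3932 after 1 Gy (log2 fold change -0.04, interval -0.51 to 0.43, adjusted p = 0.933, limma). The sign of so small a value is not settled, since it turns with the scaling of the arrays. Stxbp3 read 1761, 2548 and 2054 and then 2011, 2239 and 1845 (log2 fold change -0.05, interval -0.50 to 0.40, adjusted p = 0.911, limma), and its second probe set stayed between 25.1 and 52.1. Line 1 was higher after 1 Gy and lines 2 and 3 were lower.

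Stx5a, the syntaxin of transport between endoplasmic reticulum and Golgi, read 2716, 3901 and 3725 at 0 Gy and 3397, 3522 and 3756 after 1 Gy. Line 1 was higher, line 2 lower and line 3 nearly level, and the log2 fold change was 0.06 (interval -0.38 to 0.51, adjusted p = 0.883, limma), with 0.13 from the other probe set. Stx12, a syntaxin of recycling endosomes, read 1340, 1700 and 1377 and then 1469, 1726 and 1506. It was higher in all 3 lines, by 0.02 to 0.13 on the log2 scale (log2 fold change 0.09, interval -0.29 to 0.48, adjusted p = 0.780, limma), and its second probe set gave -0.06.

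Stx3, a syntaxin of apical and granule membranes and a close relative of Stx4a, was the 1 member that could not be tested. All 4 of its probe sets stayed under 100 on all 6 arrays, at 38.2 to 64.9 for the brightest. Its second probe set lay at 5.88 to 12.2 at 0 Gy and 15.9 to 27.7 after 1 Gy, values at which a fold has no reliable size. A change of Stx3 was not detectable at these signals.

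**Figure D2:**
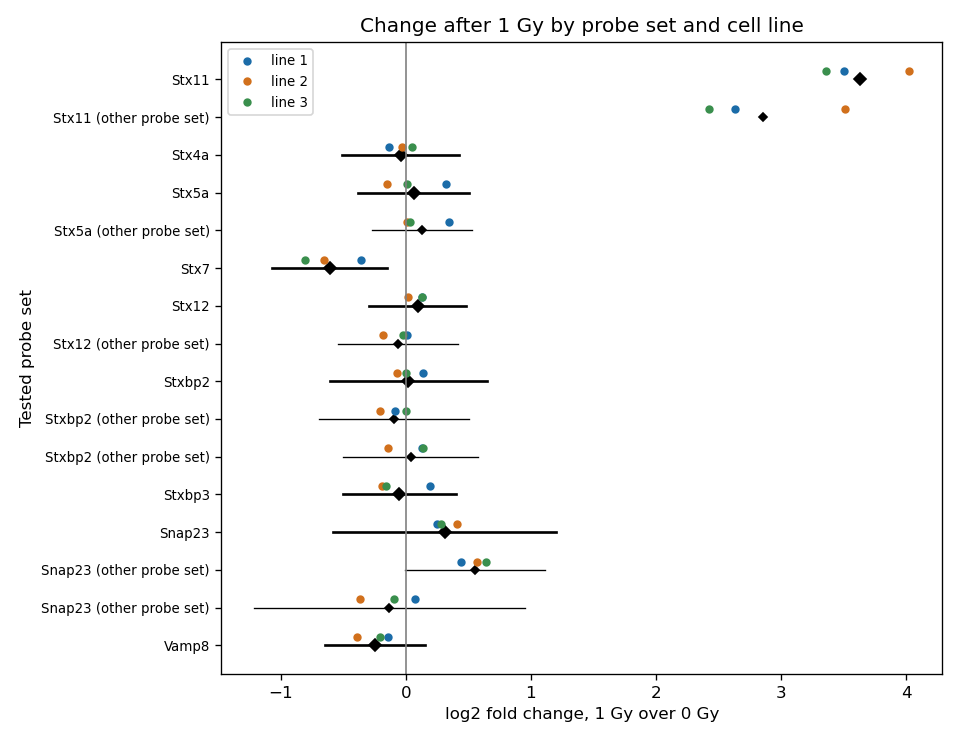
log2 fold change of 1 Gy over 0 Gy (horizontal axis) for the 16 tested probe sets of the members (vertical axis). Diamonds are the mean of 3 lines, bars its 95% confidence interval from limma without the block (not drawn for Stx11, which is not tested), and coloured points the single lines. The Stx11 points lie between 2.42 and 4.02, and all partner points lie between -0.81 and 0.64.

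Set side by side within each line as a description, the log2 change of Stx11 exceeded that of each tested partner by 3.08 to 4.68 between brightest probe sets. Averaged over lines, the smallest of these gaps was to Snap23 (3.25, 3.62 and 3.08 in lines 1, 2 and 3) and the largest to Stx7 (3.86, 4.68 and 4.17). Over all pairs of tested probe sets the gap was 1.78 to 4.68, and 1.28 to 4.10 with signals under 100 set to 100, so that its size depends on the probe set and on the low mock signals of Stx11. Stx11 was chosen for its rise in this contrast, so that the direction of the gap follows from the choice. Of the 8 tested partners, 7 had a change of less than 1.5-fold in either direction, as did 72.8% of all genes (7050 of 9678), and the median of the 8 was -0.01 against -0.11 over all genes. On bulk RNA, a change in the share of cells with a transcript and a change in its amount per cell cannot be told apart.

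The difference between the cell lines was not used by the rule for the members, though these were chosen with earlier results of the same arrays known. It was tested with dose in the model (limma, F-test over 3 lines). Over all genes 9.75% differed between lines. Of the 9 tested members 1 did (11.1%, close to that share), Snap23 (adjusted p = 0.0414, limma). Averaged over both doses, its brightest probe set was lowest in line 1 and highest in line 3, with a 1.95-fold range. The third Snap23 probe set had the same order of lines and a 2.22-fold range (adjusted p = 0.0407, limma, as for 8.6% of all probe sets), and the second had it too with 1.49-fold (adjusted p = 0.130, limma). Stxbp2 ran in the same order with a 1.59-fold range (adjusted p = 0.0992, limma), which passed only with a trend in limma's variance prior (adjusted p = 0.0192). Stx11 had a range of 1.09-fold between lines (adjusted p = 0.890, limma). The remaining 6 tested members ranged from 1.22-fold to 1.33-fold, with adjusted p of 0.206 to 0.418 (limma). Whether the response to dose differs between lines could not be tested, with 1 array per line and dose.

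Other genes of membrane fusion were described from 4 lists that hold 77 genes, of which 73 were measured and 60 tested. Of the 60, 0 rose and 4 fell (limma, adjusted p under 0.05), a share of 6.67% against 5.35% of all genes. At an unadjusted p under 0.05 (limma), 1 of the 60 was higher and 11 were lower. Of all 9678 genes, 811 were higher and 1617 lower at that threshold. Under the block 1 was higher and 10 were lower, together 18.3% against 21.4% of all genes. The median log2 fold change was -0.12, against -0.11 over all genes. The lists as a whole thus had a share of changed genes close to that of the array.

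Of 17 tested members of the other syntaxins and target SNAREs, 0 rose and 1 fell, and under the block 1 was higher and 2 were lower. Of all genes, 2.12% rose and 3.23% fell, and under the block 6.62% were higher and 14.7% lower. Stx17, a syntaxin of autophagosomes, fell from 1474, 1735 and 2230 in lines 1, 2 and 3 to 755, 788 and 869.5 (log2 fold change -1.15, standard error 0.19, adjusted p = 0.0362, limma). All 3 irradiated arrays lay under all mock arrays. Its 3 other tested probe sets gave -0.79, -0.50 and -0.45 and did not pass without the block (limma, adjusted p of 0.0834, 0.336 and 0.277). Stx6, a syntaxin of the trans-Golgi network, read 2716, 2541 and 3731 at 0 Gy and 4749, 5145 and 6210 after 1 Gy. These groups did not overlap either, and its log2 fold change of 0.85 had an adjusted p of 0.0766 without the block and 0.0207 with it (limma). Of its 5 other tested probe sets, all were higher after 1 Gy, by 0.66 to 1.35, and 1 passed without the block (adjusted p = 0.0361, limma). The second gene that was lower under the block, Snap47, a SNAP protein of wide expression named after its values were seen, had a log2 fold change of -0.68 (adjusted p = 0.0340 with the block and 0.580 without it, limma), and its lines differed more than its doses.

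Of 10 other VAMPs and vesicle SNAREs, 0 rose and 1 fell, and 4 were lower with the block, where 3.23% and 14.7% of all genes were lower. Vamp1, a vesicle SNARE known best from neurons, fell from 362, 450 and 448 to 195, 189 and 119 (log2 fold change -1.35, standard error 0.24, adjusted p = 0.0401, limma). The other 3 were Vamp5, Sec22c and Vamp4, the last of them named after its values were seen, with log2 fold changes of -0.93, -0.94 and -0.50 and adjusted p of 0.0180, 0.0295 and 0.0488 with the block (0.0998, 0.170 and 0.158 without it, limma). All 3 irradiated Vamp5 signals (85.2, 62.5 and 61.6) lay under 100, and with such signals set to 100 its value was -0.40 (adjusted p = 0.327, limma). Vamp3, Vamp2, Vamp7 and the remaining genes did not pass in either fit.

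Among 15 tested SM proteins, tethers and genes of SNARE recycling, 0 rose and 1 fell, where 2.12% of all genes rose and 3.23% fell. Stxbp4, which binds Stx4a, fell from 238, 251 and 269 to 152, 143 and 111 (log2 fold change -0.91, adjusted p = 0.0452, limma). Its call was close to the threshold and was lost with quantile normalization (adjusted p = 0.0531, limma) and with a trend in the variance prior (adjusted p = 0.0520). Its 2 other tested probe sets gave -0.45 and -0.66 and did not pass (adjusted p of 0.346 and 0.189, limma). Napa, the α-SNAP adaptor that takes spent SNARE bundles apart with the ATPase NSF, was named after its values were seen because its probe sets disagree. The brightest read a mean of 2619 at 0 Gy and 3216 after 1 Gy (adjusted p = 0.319, limma), and the other 841 and 1468 (log2 fold change 0.81, adjusted p = 0.0485, limma).

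Of 18 tested genes of granule exocytosis and the exocyst, 0 rose and 1 fell, and 3 were lower with the block. Of all genes, 3.23% fell and 14.7% were lower with the block, shares close to these. Exoc6, a subunit of the exocyst that tethers vesicles at the plasma membrane, fell from 1044, 998 and 1085 to 665, 522 and 545 (log2 fold change -0.86, adjusted p = 0.0395, limma). Rab27a, the GTPase that docks lytic granules, read 167, 182 and 119 and then 61.9, 73.9 and 39.6. The doses did not overlap, but the irradiated arrays lay under 100 (log2 fold change -1.44, adjusted p = 0.0538, and 0.0115 with the block, limma). With signals under 100 set to 100 the value was -0.62 (adjusted p = 0.101, limma). The third gene, the exocyst subunit Exoc8, named after its values were seen, had -0.55 (adjusted p = 0.0396 with the block and 0.198 without it, limma). Unc13d, the Munc13 protein that primes lytic granules, did not pass for dose and differed between lines (adjusted p = 0.00851, limma), from 74.3 to 82.7 in line 1 to 405 to 495 in line 3. With Snap47, Vamp3 and Stxbp5 it made 4 of the 60 tested genes of the lists that differed between lines, 6.67% against 9.75% of all genes.

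**Figure D3:**
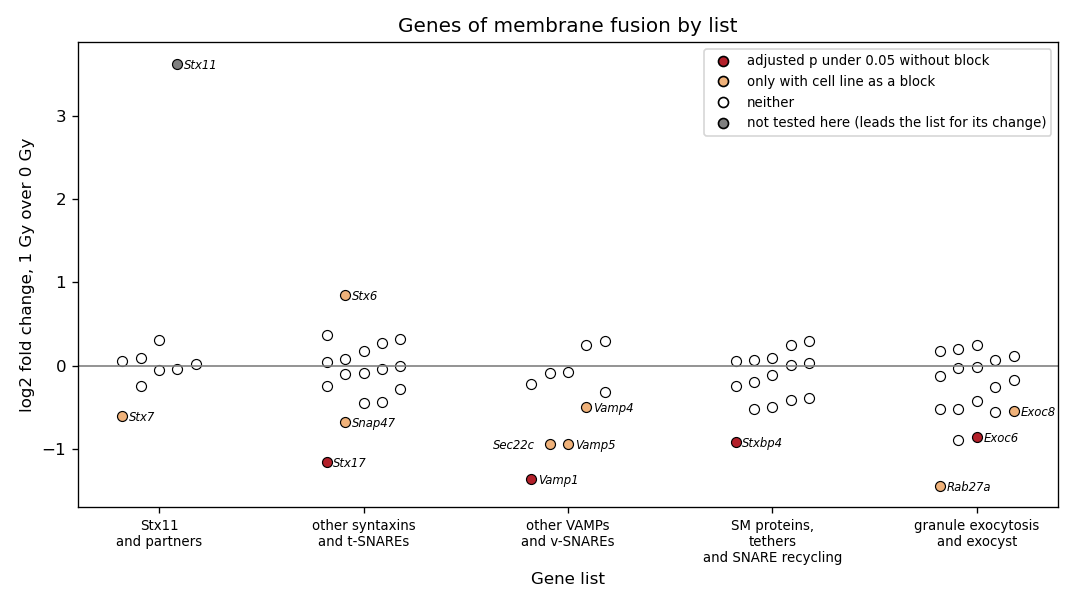
log2 fold change of 1 Gy over 0 Gy (vertical axis) of each tested gene by its brightest probe set, for Stx11 and its partners and for the 4 lists of other fusion genes (horizontal axis, spread sideways for legibility). Red points passed limma without the block, orange points only under the block, white points neither, and the grey point is Stx11. Stx11 stands at 3.63, and the genes of the 4 lists lie between -1.44 and 0.85.

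The genes whose signals followed that of Stx11 most closely over the 6 arrays were Pgm5, Maff, Dusp8, Icam1 and Atp10d. Likeness was the root mean square difference between log2 profiles, each centred on its own mean, over 9677 other genes, with no test, since these genes share the arrays and the dose contrast with Stx11. The difference was 0.193 for Pgm5, a relative of phosphoglucomutase, and 0.196 for Maff, a small Maf transcription factor. It was 0.351 for Dusp8, a phosphatase of MAP kinases, 0.364 for Icam1, the ligand of leukocyte integrins, and 0.375 for Atp10d, a lipid flippase. By the same measure the second Stx11 probe set lay at 0.405, farther than these 5 genes, and the median over all other genes was 1.90. The order rests in part on mock signals under 100. With signals under 100 set to 100, Maff, Icam1 and Atp10d were at ranks 1, 4 and 5, Dusp8 was at rank 11, Pgm5 at rank 148, and Nfkbid and Ccrl2 at ranks 2 and 3. Pgm5 read 26.3, 21.6 and 21.4 at 0 Gy and 219, 249 and 216 after 1 Gy, and Maff 107, 71.6 and 76.2 and then 1143, 1566 and 909. Icam1 and Atp10d rose from signals well over 100, Icam1 from 1099, 874 and 1632 to 9458, 10436 and 12744, and Atp10d from 1277, 965 and 1863 to 12545, 10909 and 15372. Dusp8 read 39.3, 59.4 and 40.3 and then 665, 712 and 382. Stx11, Pgm5, Maff and Dusp8 were highest in line 2 after 1 Gy, whereas Icam1 and Atp10d were highest in line 3.

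**Figure D4:**
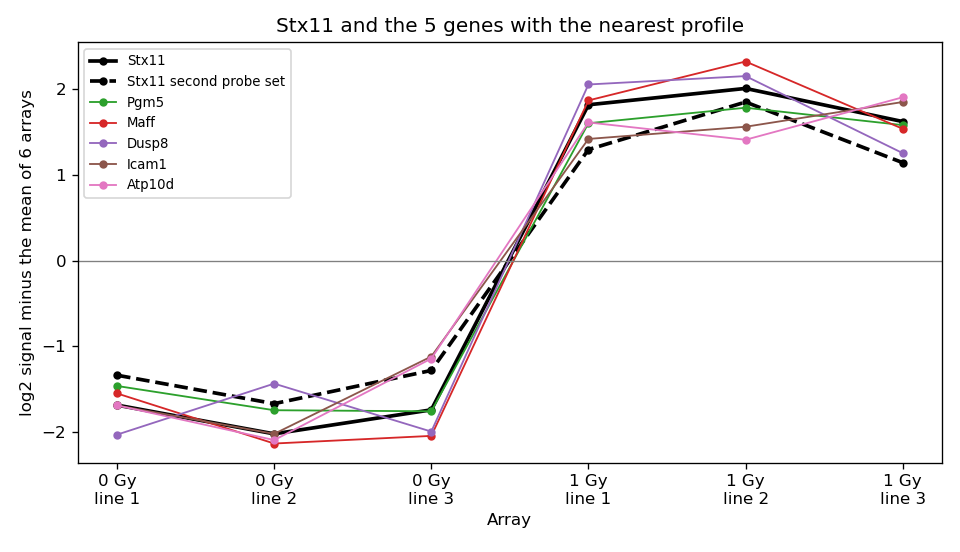
log2 signal minus its mean over 6 arrays (vertical axis) for each array (horizontal axis), for both Stx11 probe sets (black) and the 5 genes with the nearest profile (colours). All lie between -2.13 and -1.12 on the mock arrays and between 1.14 and 2.32 on the irradiated arrays.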

How the data were processed

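Total RNA of 3 cell lines at 0 and 1 Gy was measured on 6 arrays. The authors deposited 1 intensity per probe set and array on a linear scale. MAS5 is named in the submitters' processing notes (version not given in the sources used here), and on every array the mean, trimmed by 2% at each end, is 500. The RMA and quantile steps of the study's methods are not in these values. Signals under 1 were set to 1 and log2 was taken. After removal of 64 controls, 45037 probe sets remained, and the 21762 that reached 100 on 1 array or more entered limma (3.58.1, R 4.3.3). The model held dose alone, following the study's ANOVA, and p-values were adjusted over all tested probe sets by Benjamini-Hochberg. A log2 fold change is the mean of 1 Gy minus that of 0 Gy. Genes were named through the platform annotation: 34945 probe sets have 1 symbol, 932 several (unnamed here) and 9160 none. A gene is represented by its brightest probe set over 6 arrays. Samples were grouped by their titles. Deviations from the dose means correlated at 0.668 to 0.781 between arrays with the same replicate number (3 pairs) and at -0.495 to -0.0525 between others (6 pairs). With the design text, which gives each line both doses, the numbers pair the arrays, and the line was used as a block beside the fit without it. Line differences were tested in the model with dose and line.

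Alternatives were no filter or 100 on 3 arrays, quantile normalization, scaling to 1 median, a pseudocount of 16, signals under 100 set to 100, a trend in the variance prior, the mean of all tested probe sets, the methods' ANOVA (with 1.5-fold and an unadjusted p up to 0.05, and with Benjamini-Hochberg adjustment) and leaving out each array. The profiles with signals under 100 set to 100 and the gaps over all pairs of probe sets were added after seeing the data. The scripts were tested on simulated data. The members and lists were chosen with earlier results of these data known. Genes named are the 10 members, up to 8 genes of the 4 lists that passed in either fit with the largest change, and the 5 nearest profiles; others are marked. The number of arrays limits the precision, and no detection flags were used here.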

Additional observations from a re-analysis of the deposited data

How the results depend on the processing

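The log2 fold change of Stx11 was 3.24 (mean of both probe sets) to 3.70 (quantile normalization) over the alternatives to the value of 3.63, and 3.52 to 3.72 without single arrays. With signals under 100 set to 100 it was 3.26. Of the 8 tested partners, 0 were called higher under any alternative, and 1, Stx7, was called lower with the replicate block and by the methods' ANOVA with its own thresholds, and the block changed no other call of a partner by its brightest probe set. With an array left out, 0 to 94 of all 21762 probe sets passed in place of 975, so that counts of 0 there hold no information on single genes. The partners called were then 0 in either direction (0 higher and 0 to 1 lower at an unadjusted p under 0.05, limma). Signs that turned were all of values near 0 that did not pass: Stx4a was 0.0098 with a common median and -0.19 to 0.066 without single arrays (above 0 without the mock array of line 3 or the irradiated array of line 1 or 2). Stx5a ran from -0.10 (without the mock array of line 1) to 0.16. Stxbp2 was -0.011 with the mean of all probe sets and ran from -0.18 to 0.19, below 0 without the mock array of line 1 or the irradiated array of line 3. Stxbp3 ran from -0.18 to 0.091, above 0 without the mock array of line 2 or the irradiated array of line 3. In the 4 lists, genes called lower numbered 4 by limma, 10 with the replicate block, 2 with the mean of all probe sets, and 0 without the filter, with a common median and by the methods' ANOVA after Benjamini-Hochberg adjustment (9, 7 and 10 at an unadjusted p under 0.05). Of the 4 genes called lower, Stxbp4 alone lost its call with quantile normalization and with a trend. Genes called higher numbered 1 in place of 0 with the replicate block, with a trend, with the mean of all probe sets and by the ANOVA's own thresholds. Without single arrays 0 were called (8 to 13 lower and 1 to 2 higher at an unadjusted p under 0.05). Members that differed between lines numbered 1, and 0 without the filter, 2 with a trend and 0 without any 1 array (1 to 2 at an unadjusted p under 0.05). With all 6 arrays, 2 of the 9 tested members and 2962 of all 9678 genes had an unadjusted p under 0.05 for the lines (limma, F-test). The cause of the differences between settings was not tested. Scaling moved the median of all probe sets by at most 0.05 on the log2 scale.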
